A study of Mus musculus with 15 samples.

Results

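The 9 genes described here, of B cells, plasma cells and antibody transport, were followed in RNA-Seq libraries of mouse pancreas, and they are Cd79a, Cd79b, Ms4a1, Jchain, Mzb1, Sdc1, Prdm1, Irf4 and Pigr. They were chosen by name, as 9 of the 49585 genes listed, and all 9 passed the filter on low counts in each comparison. The 15 libraries came from C57BL/6 mice, and each held RNA pooled from 3 mice. The MC experiment compared 3 libraries of HPK1-M46 transgenic mice with 3 libraries labelled B control, all from mice aged 2 months. M46 is a kinase-dead form of HPK1, the kinase that the mouse gene Map4k1 encodes, and B is Bac-cre, a tamoxifen-inducible Cre driven by the elastase I promoter of acinar cells. The HC experiment compared 3 libraries labelled HPK1/B, in which the same Cre switches on intact HPK1, with 2 libraries labelled WT, at 4 months. Per the study's results, mice of both experiments, controls included, received cerulein, which brings on pancreatitis, the day before harvest. Its methods state instead that littermate controls were injected with buffered saline, and the labels do not give the treatment. The KMC experiment compared 2 libraries labelled M46/Ras/B, from mice aged 9 months, with 2 libraries labelled Ras/B (KC), from mice aged 15 months. Both of these groups are described by the study as tumour samples. Genotype, age and sex, which was read from sex-linked genes (below), cannot be told apart between them.

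B cells recognise antigen through a membrane immunoglobulin that signals through the Cd79a and Cd79b chains, and they carry the surface protein CD20, encoded by Ms4a1. When a B cell becomes a plasma cell, the transcription factors Irf4 and Prdm1 switch off much of the B cell program, the endoplasmic reticulum chaperone Mzb1 helps in antibody assembly, and syndecan-1, encoded by Sdc1, appears on the surface. Jchain links IgA and IgM into polymers, and Pigr, the polymeric immunoglobulin receptor of epithelial cells, carries these polymers across the epithelium into secretions such as pancreatic juice. Sdc1 is also made by epithelial cells, and Irf4 and Prdm1 by T cells, so that these 3 genes do not mark plasma cells alone.

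The bases just before the start of Cd79a, Jchain and Pigr are shown because these genes stand for the B cell, the antibody polymer and the epithelial receptor. The sequences are RefSeq windows of build GRCm38.p6, read 5′ to 3′ on the strand of the gene, and 6 of the 9 genes had a window in the table used. Bases that GENCODE places inside the gene were left out. Capitals mark CAGGTG (an E-box of E proteins), CACGTG (an E-box of USF and MYC), GAGGAA (a core bound by ETS proteins such as PU.1) and an NF-kB motif (GGGA and CC with 4 bases between them), searched on both strands. Cd79a lies at chr7:24897247-24897380 on the plus strand, Jchain at chr5:88527898-88528147 on the minus strand and Pigr at chr1:130826434-130826683 on the plus strand.
Cd79a: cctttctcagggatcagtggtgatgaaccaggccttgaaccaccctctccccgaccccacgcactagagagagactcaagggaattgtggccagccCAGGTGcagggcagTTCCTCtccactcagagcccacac
Jchain: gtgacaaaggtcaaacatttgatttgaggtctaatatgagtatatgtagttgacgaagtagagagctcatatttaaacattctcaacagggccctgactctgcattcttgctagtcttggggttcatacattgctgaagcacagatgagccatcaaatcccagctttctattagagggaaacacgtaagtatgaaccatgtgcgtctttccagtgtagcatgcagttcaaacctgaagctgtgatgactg
Pigr: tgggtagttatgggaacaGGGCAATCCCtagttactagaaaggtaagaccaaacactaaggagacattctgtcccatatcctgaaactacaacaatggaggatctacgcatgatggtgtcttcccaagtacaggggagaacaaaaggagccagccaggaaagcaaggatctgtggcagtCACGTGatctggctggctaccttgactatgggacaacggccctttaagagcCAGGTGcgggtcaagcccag
CAGGTG was found in the windows of Cd79a and Pigr and in 17.2% of all 32851 windows of 250 bases, CACGTG in that of Pigr and in 6.02% of windows, GAGGAA in that of Cd79a (as TTCCTC) and in 23.3%, and the NF-kB motif in that of Pigr, on the other strand, and in 17.6%. None of these motifs, nor ATGCAAAT (octamer), an EBF1 motif (TCCC and GGGA with 2 bases between), an interferon-stimulated element (GAAA and GAAA with 2 bases between) or TTCNNNGAA (STAT), was found in the Jchain window. Among the other members with a window, CAGGTG was found in Prdm1, GAGGAA in Sdc1, Prdm1 and Irf4, and the NF-kB motif in Sdc1 and Irf4. A match is a description of the letters and not of binding.

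Total counts were 29766575 to 38745907 per library. Acinar marker genes took 33.2% to 50.4% of the counts in the MC experiment, 5.33% to 8.39% in the HC experiment and 22.5% to 62.6% in the KMC experiment. In the KC libraries, tumour samples per the study, they took 55.0% to 62.6%, against 37.5% to 50.4% in the MC controls. How much of the KC RNA came from tumour was not tested. The HC experiment also held genes of the stomach lining, such as the gastrokine Gkn1 at 2336 to 2888 CPM (counts scaled to a common library size) in HC and 322 to 680 CPM in its controls, a list chosen after the data were seen. Map4k1 was at 6.79 to 8.32 CPM in MC against 2.34 to 4.14 CPM in its controls, at 5.92 to 11.4 CPM in KMC against 0.545 to 1.55 CPM in KC, but at 5.05 to 7.93 CPM in the libraries labelled HC against 11.5 to 15.4 CPM in theirs. The species of the HPK1 transgene is not given in the sources used here, and the label of HC is therefore not checked by this gene. Xist and the Y-linked Ddx3y showed 1 HC library (replicate 3) and both KC libraries to be of male mice, and the other libraries of these experiments to be of female mice. Whether these differences have a part in the results was not tested, and in KMC against KC sex cannot be told apart from genotype. In such bulk RNA, fewer cells of a type and less RNA per cell cannot be told apart.

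**Figure D1:**
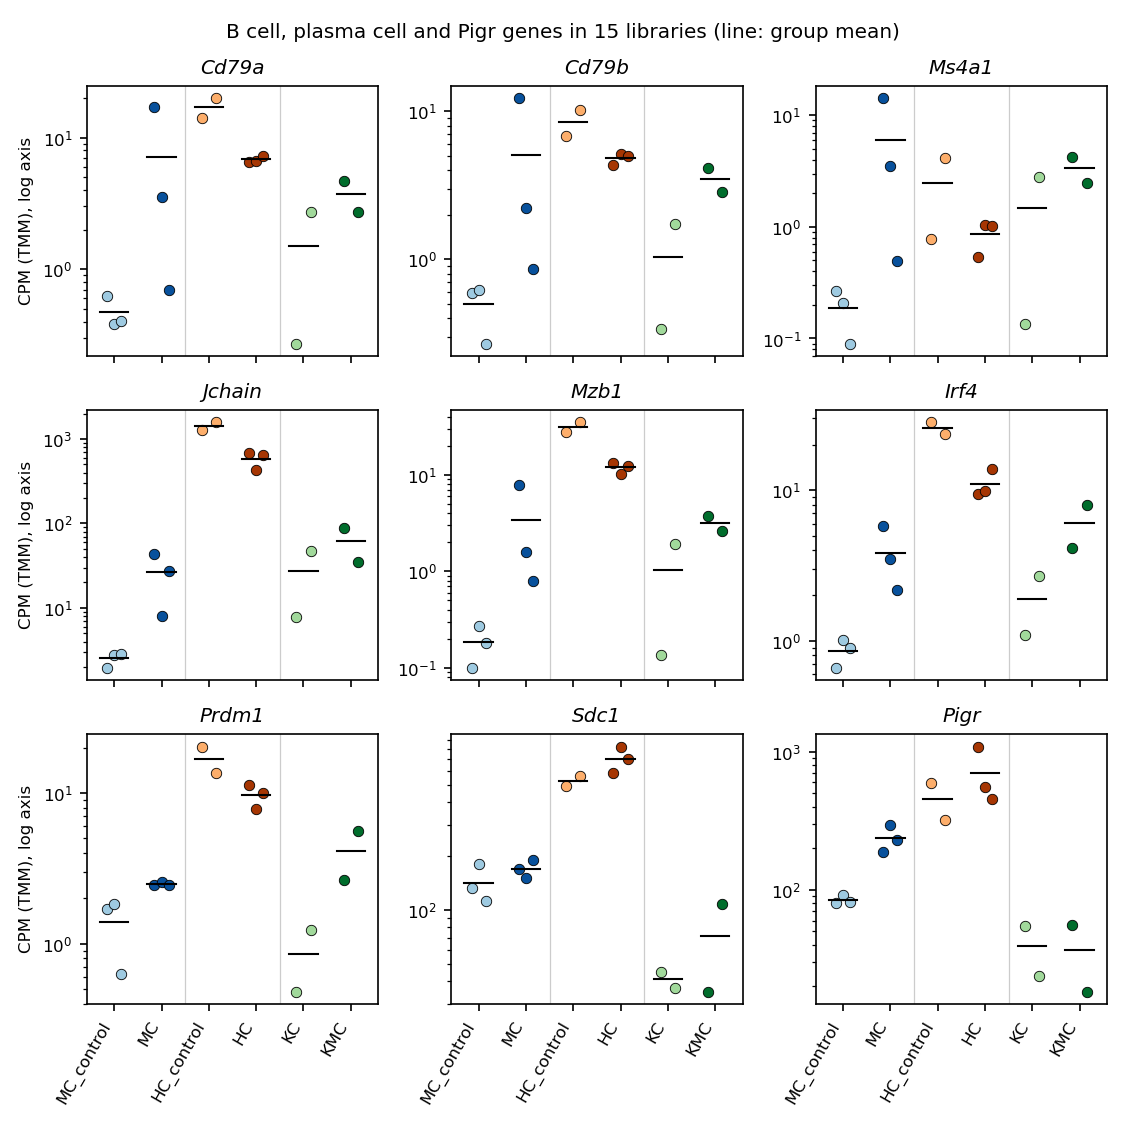
Levels of the 9 genes in CPM (scaled by TMM, log axis) in each of the 15 libraries, with 1 point for a library, a bar for the group mean and grey lines between experiments. Cd79a, Cd79b, Ms4a1 and Mzb1 spread widely among the 3 MC libraries and lie close together in the 3 libraries labelled HC.

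Levels are given in CPM (normalised counts) scaled by TMM, a factor that offsets the weight of a few very abundant genes. Per kilobase of exon, Pigr and Sdc1 were the most abundant of the 9 genes in the MC experiment, with 21.0 ± 1.65 and 37.5 ± 9.35 CPM per kilobase in the controls (SD, n = 3) and 59.0 ± 13.4 and 44.8 ± 5.24 in MC (SD, n = 3). The difference between these neighbours in MC was within their spread. In both other experiments Jchain came first, with 563 ± 84.6 CPM per kilobase in the HC controls (SD, n = 2), 232 ± 53.1 in HC (SD, n = 3), 10.9 ± 11.1 in KC (SD, n = 2) and 24.7 ± 15.1 in KMC (SD, n = 2). In HC, KC and KMC, Jchain, Sdc1 and Pigr did not differ beyond their spread. Ms4a1 was the lowest or second lowest of the 9 genes per kilobase in every group but MC, at 0.0303 ± 0.0144 in the MC controls (SD, n = 3).

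In MC pancreata, Cd79a, Cd79b and Ms4a1 were highest in replicate 1 and closest to the controls in replicate 3, and no gene passed the threshold. A gene passed when its Benjamini-Hochberg adjusted p in edgeR was at most 0.05 and its absolute log2 fold change at least 1. Of 13902 genes tested, 0 passed (0.0%), while 2038 (14.7%) had an unadjusted p under 0.05, among them 7 of the 9 members. With DESeq2, 453 genes (3.26%) and 7 members passed, so that the count depends on the test. Over all genes 10.9% had MC libraries all above the controls, as 8 of the 9 members did. Without MC_control replicate 2, 718 genes and 3 members passed, and without MC replicate 1, 171 genes and 1 member. The members' median log2 fold change was 3.31, against -0.02 for all genes tested.

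Cd79a stood at 17.1, 3.55 and 0.69 CPM in MC replicates 1 to 3 and at 0.63, 0.39 and 0.40 CPM in the controls. Its log2 fold change was 3.88 ± 1.1 (SE), with an edgeR adjusted p of 0.204. Cd79b followed the same order, with 12.3, 2.21 and 0.86 CPM in MC against 0.59, 0.63 and 0.27 CPM, and a log2 fold change of 3.31 ± 0.99 (edgeR adjusted p = 0.223). The third MC library was thus close to the controls for both chains of the receptor. Without MC replicate 1 the log2 fold change was 2.17 for Cd79a and 1.61 for Cd79b. Ms4a1 was at 14.2, 3.48 and 0.49 CPM in MC and at 0.26, 0.21 and 0.09 CPM in the controls, which is 2 to 8 counts in a control library. Its log2 fold change was 4.92 ± 1.23, with an edgeR adjusted p of 0.159, and it was 3.35 without MC replicate 1.

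The antibody-secreting cell genes did not all follow this order. Mzb1 had 7.84, 1.60 and 0.79 CPM in MC against 0.10, 0.27 and 0.18 CPM, a log2 fold change of 4.17 ± 0.99 (edgeR adjusted p = 0.143), which was 2.69 without MC replicate 1. Jchain was at 44.0, 7.97 and 27.5 CPM in MC and at 1.95, 2.80 and 2.83 CPM in the controls. Every MC library exceeded every control for Jchain, but the third library, low in Cd79a, was second here. Its mean was 10.5 times higher in MC (log2 fold change 3.39 ± 0.59, edgeR adjusted p = 0.0840). The counts of Jchain for each count of Cd79a were 2.58, 2.25 and 39.7 in the MC libraries and 3.11 to 7.23 in the controls.

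Irf4 was at 5.78, 3.48 and 2.17 CPM in MC and 0.66, 1.01 and 0.90 CPM in the controls, with a log2 fold change of 2.14 ± 0.41 (edgeR adjusted p = 0.0908). Prdm1 was even among the MC libraries, at 2.43, 2.59 and 2.44 CPM, against 1.69, 1.85 and 0.63 CPM in the controls (log2 fold change 0.82 ± 0.38, edgeR adjusted p = 0.359). Sdc1 was the only member whose groups overlapped, with 170, 151 and 191 CPM in MC and 134, 182 and 113 CPM in the controls (log2 fold change 0.26 ± 0.20, edgeR adjusted p = 0.527). Thus the 2 transcription factors lay above the controls in each MC library, and the surface proteoglycan did not.

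Pigr had the smallest adjusted p of the members in this comparison. It was at 188, 295 and 230 CPM in MC and at 80.1, 92.1 and 81.3 CPM in the controls, 2.81 times higher, with a log2 fold change of 1.49 ± 0.19 (edgeR adjusted p = 0.0782). The order of the MC libraries for Pigr, with the second highest, was not that of the B cell genes. Krt19, a keratin of the duct cells in which Pigr can be made, was at 148 to 176 CPM in MC and 166 to 268 CPM in the controls. Among 25 tested genes that induce Pigr or carry its cargo, 14 had a positive and 11 a negative log2 fold change and 0 passed.

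**Figure D2:**
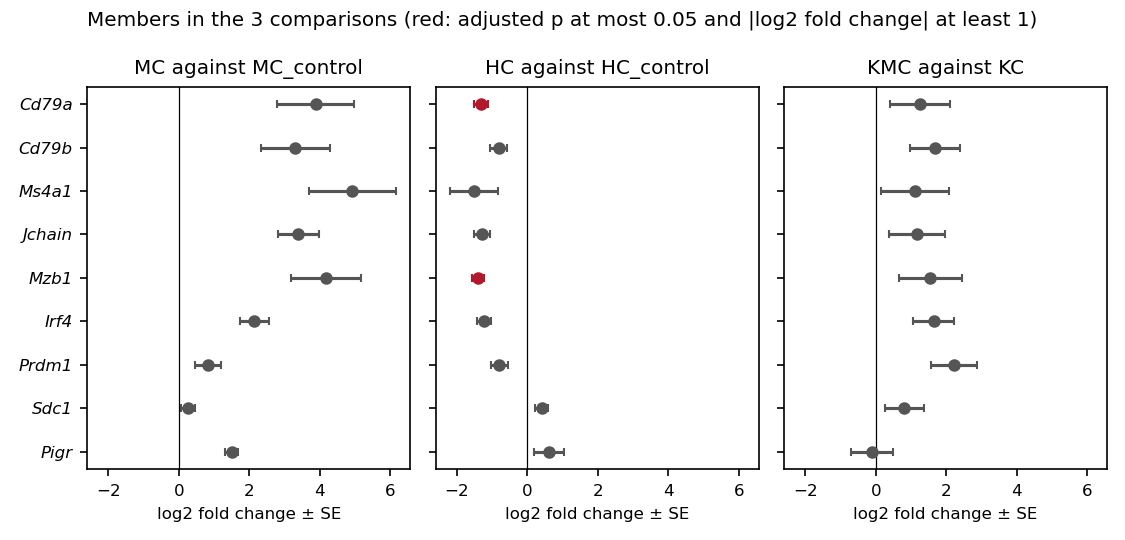
Log2 fold change of each of the 9 genes with its standard error in the 3 comparisons, from edgeR over all genes. Red points passed the threshold, which were Cd79a and Mzb1 in the libraries labelled HC. Grey points did not.

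Other B cell genes had the same sign in MC. Of 18 tested genes of B cell surface and identity, 17 had a positive log2 fold change, 13 had all MC libraries above the controls and 0 passed, with a median of 2.37. Spib, a transcription factor of B cells and other cells, had the smallest p, with 4.50 ± 3.70 CPM in MC and 0.416 ± 0.112 CPM in the controls (SD, n = 3, edgeR adjusted p = 0.0942). Among 18 genes of B cell receptor signalling, which other leukocytes share, 17 were positive, with a median of 0.70. Fcgr2b, an inhibitory Fc receptor, led with 26.7 ± 3.09 CPM in MC and 10.8 ± 4.11 CPM in the controls (SD, n = 3, edgeR adjusted p = 0.0968). The plasma cell list had a median of -0.17, with 6 positive and 9 negative, and many of its genes, such as Xbp1 at 897 to 1476 CPM in the controls, serve secretion in acinar cells too. Zbp1, a sensor of nucleic acids, had its smallest p, with 35.3 ± 21.8 against 4.69 ± 0.75 CPM (SD, n = 3, edgeR adjusted p = 0.0843). The MC table lists 0 immunoglobulin genes, and antibody classes in MC were therefore not analysed here.

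In the other related lists 0 genes passed. Itgb7, an integrin chain that guides lymphocytes to the gut, had 9.88 ± 0.83 CPM in MC and 3.42 ± 1.58 CPM in the controls (SD, n = 3, edgeR adjusted p = 0.131) and led 16 tested genes of B cell recruitment and survival, 13 of them positive. In the germinal centre list, 4 of 6 were positive, led by Il21r, the receptor of interleukin 21, at 8.37 ± 0.88 against 3.07 ± 2.29 CPM (SD, n = 3, edgeR adjusted p = 0.258). Among 11 syndecans and heparan sulfate genes, 7 were positive, and Sdc3, a syndecan of nerve and other cells, had 143 ± 43.4 against 44.9 ± 19.4 CPM (SD, n = 3, edgeR adjusted p = 0.108). Cxcl13, the chemokine that draws B cells into follicles, was at 109, 28.2 and 2.81 CPM in MC replicates 1 to 3, in the order of Cd79a, and at 0.79 to 6.82 CPM in the controls. It was chosen after its values were seen.

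Markers of other cells were also compared in MC, and 0 of them passed. Ptprc, which all leukocytes carry, was at 38.3 to 52.4 CPM in MC and 8.40 to 19.8 CPM in the controls (log2 fold change 1.66 ± 0.30, edgeR adjusted p = 0.0840). Of 14 T cell markers, all 14 were higher in each MC library, with a summed level of 34.8 to 36.8 CPM against 10.8 to 21.9 CPM, and of 10 macrophage markers 7 were. Of 5 neutrophil markers tested 0 separated the groups, with a median log2 fold change of 0.17. Summed adipocyte markers were at 135, 78.6 and 54.2 CPM in MC replicates 1 to 3 and at 37.3 to 45.9 CPM in the controls. Summed markers of lymphoid tissue stroma, a list that includes Cxcl13, were at 170, 81.1 and 45.2 CPM and at 21.5 to 35.3 CPM. Both sums had the library order of Cd79a. Cxcl13, chosen after its values were seen, alone gave 109, 28.2 and 2.81 CPM of the stroma sum. The part of both lists in the members' values was not tested. Relative to Ptprc, the counts of Cd79a were 0.445, 0.0866 and 0.0132 per count of Ptprc in MC and 0.0195 to 0.0481 in the controls, so that the groups overlapped. Those of Pigr were 4.38 to 7.21 in MC and 4.65 to 9.68 in the controls, and these overlapped too. Sdc1 per Ptprc was lower in each MC library, at 3.65 to 4.43 against 9.19 to 13.4. So was Krt19 per Ptprc, at 3.37 to 4.03 against 11.6 to 20.0. Ptprc was itself higher in MC, and its part in these ratios was not tested.

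**Figure D3:**
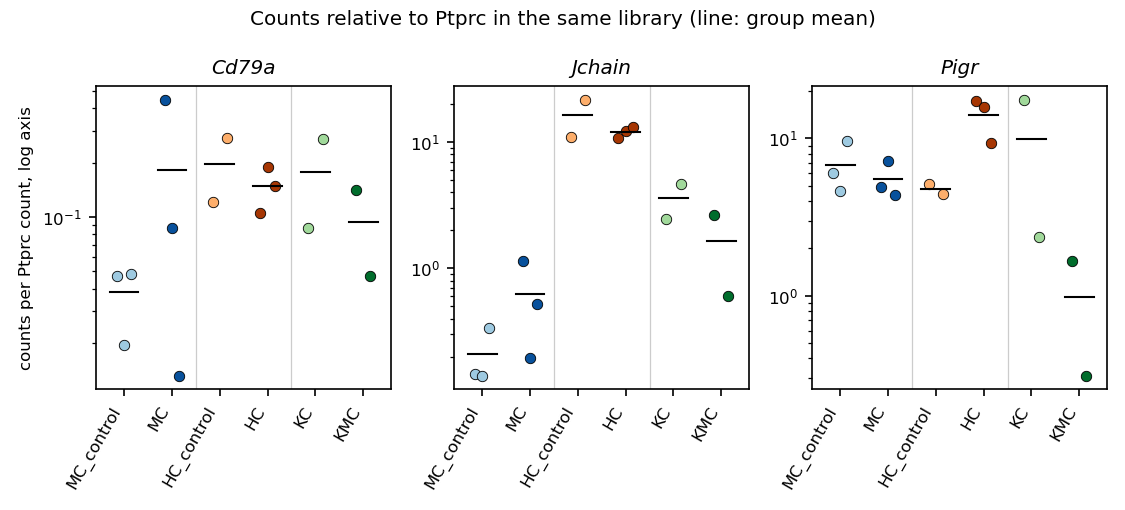
Counts of Cd79a, Jchain and Pigr divided by the counts of Ptprc in the same library (log axis), with 1 point for a library and a bar for the group mean. The groups overlap for Cd79a in each experiment, and Pigr per Ptprc is higher in each of the 3 libraries labelled HC (9.34 to 17.3) than in both controls (4.40 and 5.09). Sdc1 and Krt19 per Ptprc, which are not drawn, separate the HC groups in the same direction.

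In the libraries labelled HC, Cd79a and Mzb1 fell, and most other B cell and plasma cell genes were lower without passing. Of 18407 genes tested, 104 passed (0.565%), of which 18 were lower (0.0978%), and 2 of these were members. With DESeq2, 467 genes (2.54%) and 4 members passed. An unadjusted p under 0.05 was found for 6 members and 15.9% of all genes, and 6 members had all HC libraries below both controls, as had 16.1% of all genes. The calls depended on which HC libraries were kept. Without HC replicate 2, 0 genes passed, without HC replicate 3 there were 3 genes and 0 members, and without HC replicate 1 there were 379 genes and 3 members. Leaving out either control leaves 1 control library, so that calls of such a fit cannot decide on this. The members' median log2 fold change was -1.22, against -0.0011 for all genes.

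Cd79a was at 6.56, 6.64 and 7.26 CPM in HC and at 14.0 and 19.9 CPM in the controls. The HC libraries lay within a narrow range and below both controls, 2.48-fold lower on the fitted scale (log2 fold change -1.31 ± 0.19, edgeR adjusted p = 0.0499). This adjusted p lay at the threshold, and it was 0.0506 with DESeq2 size factors and 0.052 with library size alone. Cd79b had 4.37, 5.15 and 5.01 CPM against 6.83 and 10.2 CPM (log2 fold change -0.82 ± 0.23, edgeR adjusted p = 0.181). Ms4a1 had 0.53, 1.05 and 1.01 CPM against 0.77 and 4.12 CPM. Its controls differed by a factor of 5.32 and its groups overlapped (log2 fold change -1.51 ± 0.68, edgeR adjusted p = 0.351).

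Mzb1 fell from 28.2 and 35.2 CPM in the controls to 13.4, 10.2 and 12.5 CPM in HC, 2.63-fold lower (log2 fold change -1.39 ± 0.17, edgeR adjusted p = 0.0428). Jchain was at 675, 430 and 645 CPM in HC and at 1267 and 1568 CPM in the controls (log2 fold change -1.28 ± 0.23, edgeR adjusted p = 0.0714). Its groups did not overlap, and it passed with DESeq2 (adjusted p = 4.68e-06). The level of Jchain in the HC experiment was above that of the other experiments in each library, although each experiment was scaled by itself.

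Irf4 had 9.48, 9.85 and 13.9 CPM in HC against 28.1 and 23.5 CPM (log2 fold change -1.22 ± 0.20, edgeR adjusted p = 0.0596), and it also passed with DESeq2 (adjusted p = 1.508e-05). Prdm1 had 11.3, 7.85 and 9.99 CPM against 20.3 and 13.5 CPM (log2 fold change -0.80 ± 0.24, edgeR adjusted p = 0.196). Both transcription factors were lower in each HC library than in either control. Sdc1 had the opposite sign, with 584, 821 and 699 CPM against 493 and 561 CPM (log2 fold change 0.41 ± 0.18, edgeR adjusted p = 0.345). Pigr was at 1085, 551 and 458 CPM in HC and 592 and 319 CPM in the controls, and its groups overlapped (log2 fold change 0.62 ± 0.44, edgeR adjusted p = 0.553).

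The heavy and light chains of antibody were listed in this table. Igha, the IgA heavy chain, was at 2646, 1397 and 2404 CPM in HC and 5794 and 5493 CPM in the controls (log2 fold change -1.39 ± 0.31, edgeR adjusted p = 0.115). Igkc, the kappa light chain, was at 1902, 1268 and 1948 CPM against 3734 and 4515 CPM (edgeR adjusted p = 0.0910). Both lay below the controls in each library without passing. Ighm, the IgM heavy chain, was at 41.2, 206 and 107 CPM against 85.7 and 101 CPM, so that its groups overlapped. Of the 12 constant region genes tested, 10 had a negative log2 fold change, with a median of -1.33, and 1 passed, Iglc3. This lambda chain gene had 1.47 ± 0.48 CPM in HC (SD, n = 3) and 11.4 ± 5.26 CPM in the controls (SD, n = 2, edgeR adjusted p = 0.0449). It shares near-identical sequence with Iglc2, and counts of the pair may be split between them.

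IgA made up most heavy chain counts in this experiment. Igha took 92.3% of the counts of heavy chain constant genes in the first HC library (Wilson 95% interval 92.1 to 92.4), 80.9% in the second (80.5 to 81.2) and 87.8% in the third (87.6 to 88.0). In the controls it took 94.0% (93.9 to 94.1) and 66.5% (66.3 to 66.6). The intervals cover counting error only, and the libraries of a group differed by more. The second control differed from the first by Ighg2b, which took 23.8% of its counts and 2.05% in the first control, and 1.79% to 3.68% in HC. Ighg2b was singled out after its values were seen.

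**Figure D4:**
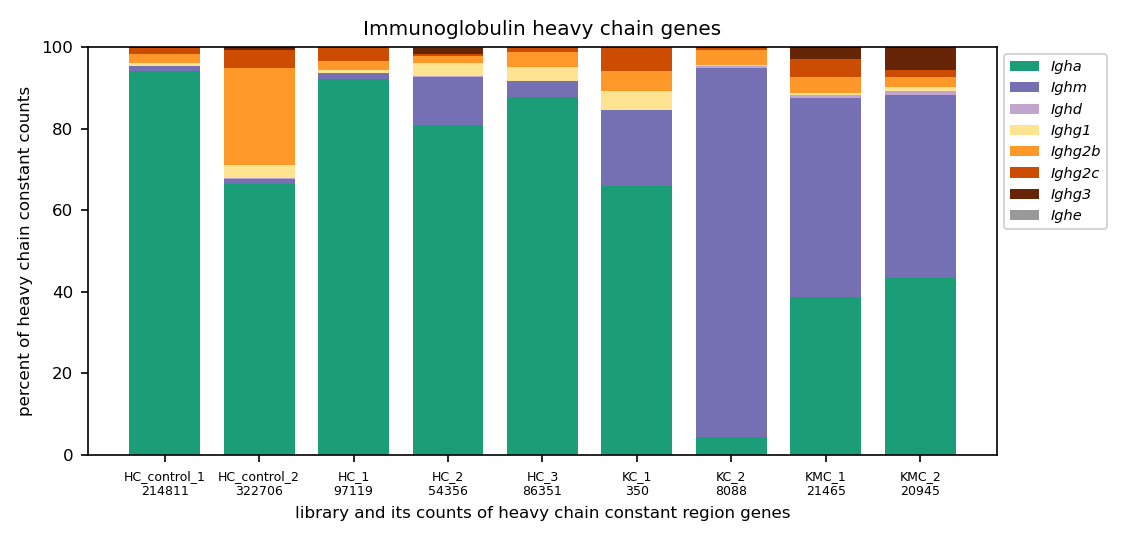
Percent of the counts of heavy chain constant region genes taken by each gene (stacked from 0 to 100) in the 9 libraries of the HC and KMC experiments, with the total count under each library. Igha takes 66.5% or more in the HC experiment, and the second KC library holds mostly Ighm (90.4%).

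Most other B cell lists had negative signs too. Of 22 genes of B cell surface and identity, 20 were negative, 11 lay below both controls in each library, and 1 passed, with a list median of -0.87. This was Pou2af1, a coactivator that B cells need for antibody responses, at 13.4 ± 1.42 CPM in HC (SD, n = 3) and 29.2 ± 4.77 CPM in the controls (SD, n = 2, log2 fold change -1.12 ± 0.16, edgeR adjusted p = 0.0454). The 2 positive genes were Spib, with 63.9 against 49.1 CPM and overlapping groups, and Ly6d, which epithelial cells also make, with 98.9 against 49.2 CPM, both named after their values were seen. Of the genes of receptor signalling 16 of 18 were negative (median -0.29), led by Syk, the kinase next to the Cd79 chains, with 46.3 ± 8.81 CPM in HC (SD, n = 3) and, in the controls, 78.5 ± 27.9 CPM (SD, n = 2, edgeR adjusted p = 0.221). In the plasma cell list 14 of 16 were negative (median -0.32), led by Zbp1 with 4.58 ± 0.40 CPM (SD, n = 3) against 12.1 ± 5.51 CPM (SD, n = 2, edgeR adjusted p = 0.104).

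Recruitment and survival factors had 15 negative of 20 tested, led by Itga4, the integrin chain that pairs with that of Itgb7, with 22.7 ± 5.92 CPM (SD, n = 3) against 47.3 ± 9.58 CPM (SD, n = 2, edgeR adjusted p = 0.125). In the germinal centre list 6 of 7 were negative, and Il21r led with 6.51 ± 1.59 CPM (SD, n = 3) against 14.7 ± 8.60 CPM (SD, n = 2, edgeR adjusted p = 0.231). The genes around Pigr had a median of -0.02. Their smallest p was that of Rab25, a GTPase of recycling vesicles in epithelial cells, with 101 ± 10.2 CPM (SD, n = 3) against 62.9 ± 0.66 CPM (SD, n = 2, edgeR adjusted p = 0.0596). Gpc1, a glypican, led the syndecan list, with 50.6 ± 9.73 CPM (SD, n = 3) against 87.2 ± 9.44 CPM (SD, n = 2, edgeR adjusted p = 0.118).

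Markers of other cells were compared in the same libraries. Ptprc was at 35.1 to 62.6 CPM in HC and 72.6 to 116 CPM in the controls (log2 fold change -0.95 ± 0.28, edgeR adjusted p = 0.195), and 5 of 5 pan-leukocyte genes were below both controls in each library. Of 14 T cell markers 12 were negative and 1 lay below both controls in each library, with a summed 243 to 437 CPM against 472 to 578 CPM. Of 10 macrophage markers 7, and of 5 neutrophil markers 5, lay below both controls. None of these leukocyte markers passed. Of 7 gut epithelium markers tested, 5 had a positive and 2 a negative log2 fold change, and 1 passed, which was lower in HC. Summed erythroid markers were at 73.3, 794 and 670 CPM in HC replicates 1 to 3 and at 59.4 and 78.6 CPM in the controls, so that replicates 2 and 3 stood apart. Krt19 was at 1497 to 2151 CPM in HC and 896 to 959 CPM in the controls, and the summed gastric genes were at 4588 to 6500 CPM against 817 to 1684 CPM. Their part in the members' values was not tested. Per count of Ptprc, Cd79a stood at 0.105, 0.189 and 0.148 in HC and at 0.120 and 0.274 in the controls, Mzb1 at 0.214, 0.292 and 0.256 against 0.242 and 0.485, and Jchain at 10.8, 12.3 and 13.2 against 10.9 and 21.6. On this scale none of the 3 genes separated the groups. Pigr per Ptprc did, at 17.3, 15.7 and 9.34 against 5.09 and 4.40. So did Sdc1 per Ptprc, at 9.33 to 23.4 against 4.24 to 7.74, and Krt19 per Ptprc, at 23.9 to 61.4 against 8.25 to 12.4. Ptprc was itself lower in HC, and its part in these ratios was not tested.

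In KMC against KC, no member passed, and the levels in the 2 KC libraries differed several-fold for most members. Of 15733 genes tested 3 passed (0.0191%), against 2159 (13.7%) with DESeq2, which called 1 member. An unadjusted p under 0.05 was found for 3 members and 25.6% of all genes, and 5 members had both KMC libraries above both KC libraries, as had 34.4% of all genes. Without KMC replicate 1, 2312 genes and 2 members passed, and without KMC replicate 2, 76 genes and 0 members. The members' median log2 fold change was 1.26, against 0.03 for all genes. This comparison depends on the scaling, since with library size alone the median of all genes was 1.47 and 7 members passed, in a pair of groups where acinar genes took 55.0% to 62.6% of the KC counts and 22.5% to 44.2% of the KMC counts.

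Cd79a was at 4.69 and 2.74 CPM in KMC and at 0.27 and 2.71 CPM in KC (log2 fold change 1.26 ± 0.85, edgeR adjusted p = 0.373). The second KC library nearly reached the lower KMC library. Cd79b was at 4.18 and 2.84 CPM against 0.34 and 1.74 CPM (log2 fold change 1.69 ± 0.72, edgeR adjusted p = 0.194). Ms4a1 was at 4.25 and 2.47 CPM against 0.14 and 2.83 CPM, where the KC libraries held 2 and 73 counts (log2 fold change 1.12 ± 0.97, edgeR adjusted p = 0.485). The first KC library was thus the lowest of the 4 for each of these B cell genes. Without it the log2 fold change was 0.44 for Cd79a, 0.996 for Cd79b and 0.24 for Ms4a1, and without KC replicate 2 it was 3.75, 3.35 and 4.59.

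Mzb1 was at 3.78 and 2.61 CPM in KMC and 0.14 and 1.94 CPM in KC (log2 fold change 1.55 ± 0.89, edgeR adjusted p = 0.299). Jchain was at 89.0 and 35.4 CPM against 7.76 and 47.1 CPM, and its groups overlapped (log2 fold change 1.17 ± 0.80, edgeR adjusted p = 0.375). Prdm1 had the smallest adjusted p of the members here, at 2.65 and 5.60 CPM against 0.48 and 1.24 CPM (log2 fold change 2.22 ± 0.64, edgeR adjusted p = 0.113). It was the member that passed with DESeq2 (adjusted p = 0.0159). Irf4 was at 4.1 and 7.96 CPM against 1.09 and 2.71 CPM (log2 fold change 1.64 ± 0.57, edgeR adjusted p = 0.146). For these factors the second KMC library was the higher, in the order of Ptprc (33.4 and 58.6 CPM).

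Sdc1 was at 34.8 and 109 CPM in KMC and 45.3 and 36.5 CPM in KC (log2 fold change 0.81 ± 0.55, edgeR adjusted p = 0.373). Pigr was at 55.4 and 18.2 CPM in KMC and at 55.1 and 23.8 CPM in KC, so that each group held 1 higher and 1 lower library. Its log2 fold change was -0.10 ± 0.60 (edgeR adjusted p = 0.932), and it was 1.27 with library size alone, where the median of all genes was 1.47. Krt19 was at 25.1 and 71.1 CPM against 29.8 and 24.8 CPM.

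Antibody genes differed between the KC libraries in both level and class. Igha was at 204 and 108 CPM in KMC and at 15.7 and 14.2 CPM in KC (log2 fold change 3.39 ± 0.49, edgeR adjusted p = 0.0796). Ighm was at 258 and 112 CPM in KMC and at 4.43 and 283 CPM in KC, with overlapping groups. In the first KC library Igha took 66.0% of 350 heavy chain counts (Wilson 95% interval 60.9 to 70.8), and in the second 4.53% of 8088 counts (4.09 to 5.0), where Ighm took 90.4% (89.7 to 91.0). The KMC libraries were closer to each other, with 38.7% (38.1 to 39.4) and 43.5% (42.8 to 44.1) for Igha. Ighg3, an IgG heavy chain, had the smallest p of the constant regions, with 14.6 ± 0.76 CPM in KMC and 0.232 ± 0.328 CPM in KC (SD, n = 2, edgeR adjusted p = 0.0796), where the first KC library held 0 counts.

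The related lists had mostly positive signs in KMC and 0 genes that passed. Of 21 B cell surface genes tested, all 21 were positive, with a median of 1.81, led by Cd180, a receptor related to the Toll-like family, at 7.96 ± 0.17 against 1.16 ± 0.87 CPM (SD, n = 2, edgeR adjusted p = 0.0796). Of the receptor signalling genes 16 of 18 were positive, led by Vav1, an exchange factor of lymphocytes and other blood cells, at 14.5 ± 7.25 against 1.83 ± 0.47 CPM (SD, n = 2, edgeR adjusted p = 0.0796). In the plasma cell list 8 were positive, led by Zbp1 with 9.94 ± 0.22 against 1.35 ± 0.49 CPM (SD, n = 2, edgeR adjusted p = 0.0796), and 8 were negative. In this list 8 genes lay below KC in both libraries and 6 lay above. Among the negative ones was Xbp1, which serves secretion in acinar cells too, with 244 against 613 CPM. The part of acinar cells in these values was not tested. Among recruitment factors 17 of 19 were positive, and Vcam1, a vascular adhesion molecule, had 24.8 ± 12.9 against 2.31 ± 1.44 CPM (SD, n = 2, edgeR adjusted p = 0.0796).

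Il21r, with 6.50 ± 3.71 against 0.664 ± 0.265 CPM (SD, n = 2, edgeR adjusted p = 0.0796), led the germinal centre list, in which 5 of 6 were positive. Tlr4, the receptor of bacterial lipopolysaccharide, had 11.7 ± 5.25 against 2.48 ± 0.06 CPM (SD, n = 2, edgeR adjusted p = 0.0796) and led the genes around Pigr, 17 of 25 positive. Sdc3 led the syndecan list with 95.7 ± 40.7 against 15.2 ± 9.01 CPM (SD, n = 2, edgeR adjusted p = 0.0796). Ptprc had a log2 fold change of 2.78 ± 0.59 (edgeR adjusted p = 0.0796), 9 of 10 macrophage markers and 13 of 14 T cell markers lay above KC in both libraries, and their part was not tested. Per count of Ptprc, Cd79a was at 0.141 and 0.0467 in KMC and 0.0870 and 0.269 in KC, and Jchain at 2.67 and 0.604 against 2.48 and 4.68. Pigr per Ptprc was at 1.66 and 0.311 in KMC and 17.6 and 2.36 in KC, lower in both KMC libraries. Sdc1 per Ptprc was lower in both too, at 1.04 to 1.85 against 3.63 to 14.5, as was Krt19, at 0.751 to 1.21 against 2.46 to 9.5. Ptprc was itself higher in KMC, and its part in these ratios was not tested.

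**Figure D5:**
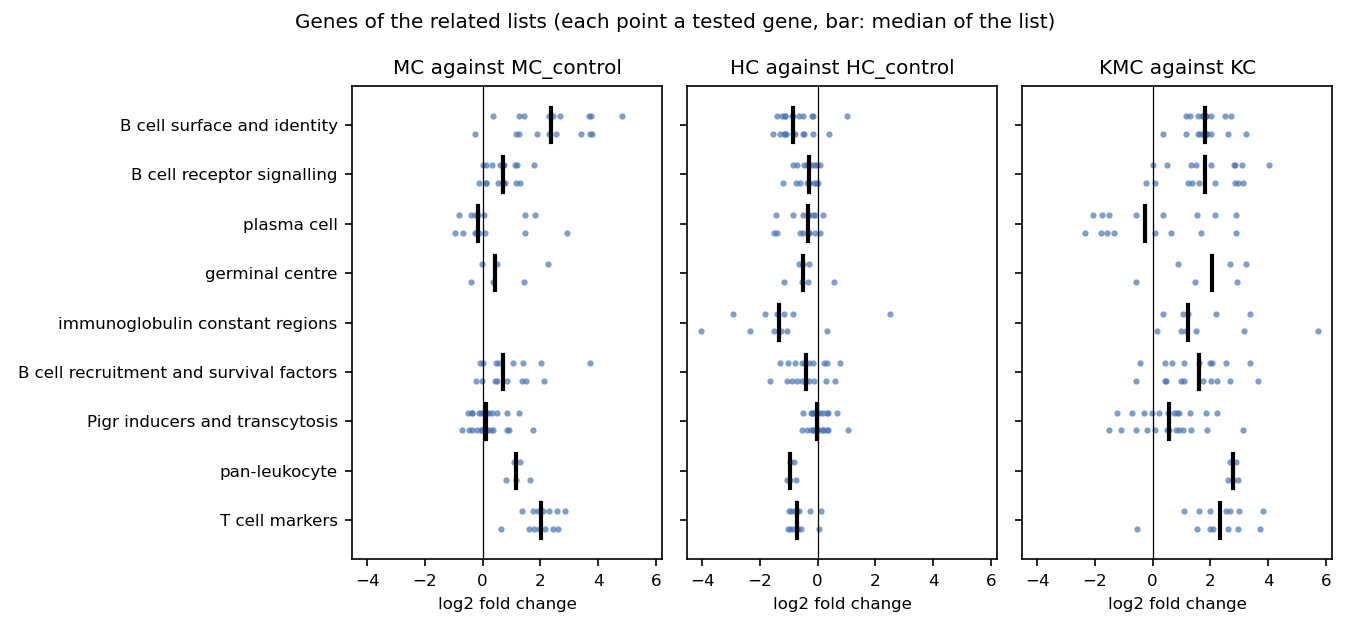
Log2 fold change of the tested genes of 7 related lists, the pan-leukocyte genes and the T cell markers in the 3 comparisons, with 1 point for a gene and a bar for the list median. B cell surface genes have a median of 2.37 in MC, -0.87 in the libraries labelled HC and 1.81 in KMC, and no constant region genes are listed for MC.

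The effects of the MC and HC experiments (libraries labelled HC) were set against each other as a difference of log2 fold changes, each taken against its own control in a joint fit. The experiments differ in age, table and library preparation, and in the genotype of the controls, labelled B control in MC and WT in HC. The type of transgene cannot be told apart from these. Over all genes 2.18% passed, and of the 9 members 3 did. The difference (MC minus HC) was 4.66 ± 0.71 for Jchain (edgeR adjusted p = 0.0199), 5.54 ± 1.1 for Mzb1 (edgeR adjusted p = 0.0348) and 3.35 ± 0.48 for Irf4 (edgeR adjusted p = 0.0188). It was 5.18 ± 1.24 for Cd79a (edgeR adjusted p = 0.0572) and 6.43 ± 1.57 for Ms4a1 (edgeR adjusted p = 0.0577), which did not pass. For Sdc1 it was -0.16 ± 0.29 and for Pigr 0.87 ± 0.48 (edgeR adjusted p = 0.776 and 0.330). The members that passed numbered 0 without MC_control replicate 1, HC replicate 2, HC replicate 3 or HC_control replicate 1, 1 without MC replicate 2, and 6 without MC replicate 3 or MC_control replicate 2. Between KMC and MC, 0.0% of genes passed, although 2342 had an unadjusted p under 0.05 and DESeq2 called 6, none of them members. The largest difference of a member (KMC minus MC) was -3.90 ± 1.79, for Ms4a1 (edgeR adjusted p = 0.313), and that of Pigr was -1.64 ± 0.64 (edgeR adjusted p = 0.298).

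Across all 15 libraries, after centring log2 values on the mean of each experiment, the genes most like Cd79a among 13655 were Cd79b (Pearson r = 0.98), Pou2af1 (0.98), Mzb1 (0.97), Pax5 (0.97) and Ms4a1 (0.97). Those most like Jchain were Chst10 (0.91), Fcrl1 (0.90), Btla (0.89), Lax1 (0.88) and Mzb1 (0.88), and Cd79a came at rank 56 with 0.79. Those most like Pigr were Cnn1 (0.92), Rnf31 (0.90), Lgals9 (0.84), Apod (0.83) and Cmpk2 (0.83), while its values with Cd79a, Jchain and Sdc1 were 0.16, 0.29 and -0.15. These values are descriptions, since the libraries share experiments and depth, and the wide spread of the MC libraries weighs on them.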

How the data were processed

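RNA-Seq was performed on 15 libraries of mouse pancreas, each pooled from 3 mice. The authors deposited 3 tables of raw read counts per gene, not normalized. Reads were aligned to GRCm38 (mm10) with STAR and summarised over GENCODE genes per the study, and the submitters' processing notes name bcl2fastq 2.17.14, STAR 2.6.1a and HTSeq 0.6.1. The MC table lists 15175 genes by a rule not given in the sources used here, and the others 49585. A further deposited table holds only the authors' own DESeq2 comparison for MC (fold changes and p-values) and was not used.

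Counts were filtered with filterByExpr, scaled by TMM and tested within each pair of groups with edgeR's quasi-likelihood test (edgeR 4.0.16, limma 3.58.1, R 4.3.3), with Benjamini-Hochberg adjustment over all genes tested. The threshold for a call was an adjusted p of 0.05 or less together with a log2 fold change of 1 or more in either direction. The SE of a log2 fold change was its size divided by the square root of F. DESeq2 1.42.0, other scalings and filters, a fit of 4 groups, a replicate block and leaving out each library were alternatives. Differences of effects were fitted over both experiments. The test was also run on simulated data.

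Named genes were the 9 members, from each related list the genes that passed (at most 4) or else the gene with the smallest p, and some genes standing for a level, such as Ptprc and Krt19. Some named items are not reported here. The members and lists were chosen with earlier results of these data known. Likeness used log2(CPM + 1), centred on the mean of each experiment. Shares have Wilson 95% intervals, which cover counting error only. Total counts were 29766575 to 38745907 per library, and a floor of 3 counts is about 0.1 CPM. No 2 libraries of a group agreed within sampling noise. Labels do not say that libraries share mice or days, so that p-values measure the spread between pools.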

Additional observations from a re-analysis of the deposited data

Results flagged for a closer look

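For 3 members the effect in MC differed from that in the libraries labelled HC by the test of the difference itself (log2 scale, edgeR adjusted p under the threshold). The difference was 4.665 for Jchain, 5.545 for Mzb1 and 3.354 for Irf4. The adjusted p rose to at most 0.0969 for Jchain, 0.137 for Mzb1 and 0.104 for Irf4 when single libraries were left out. Groups of 2 or 3 libraries were too small for a check of single outlying libraries.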

How the results depend on the processing

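Over 557 alternatives of the members' log2 fold changes and differences, 474 kept direction and side of the threshold, 29 lost the call, 42 gained it and 12 changed sign. The causes were not tested. With DESeq2, 453 genes and 7 members passed in MC, 467 and 4 in HC, 2159 and 1 in KMC, 1010 and 7 for the difference of MC and HC, and 6 genes for that of KMC and MC. With library size alone, 1 gene passed in MC, 1 member in HC, 4714 genes and 7 members in KMC and 98 genes for the difference of MC and HC. DESeq2 size factors, and a library without acinar genes, each left 1 member in HC. With no filter, 395 genes and 4 members passed in HC and 9 genes in KMC. One fit of 4 groups gave 1 gene and 0 members in HC and 3230 genes and 2 members in KMC. In MC, correlations of same-numbered libraries were -0.2967 to 0.2964 and those of other pairs -0.391 to 0.3508, which showed no pairing by replicate number. Same-numbered libraries had 0.17 and 0.1893 in HC and 0.0514 in KMC. These cannot decide on pairing, because the deviations of a group of 2 libraries mirror each other. The replicate block gave 0 genes in MC, 339 genes in HC, and 2464 genes and 2 members in KMC, with Cd79a in MC at 3.26 under the block.

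Leaving out 1 library gave 0 to 718 genes and 0 to 3 members in MC, 0 to 379 genes and 0 to 3 members in HC, 0 to 2312 genes and 0 to 2 members in KMC, 0 to 1584 genes and 0 to 6 members for the difference of MC and HC, and 0 to 959 genes for that of KMC and MC. Leaving out 1 library moved the sign of some values, over ranges of -2.25 to 0.15 for Ms4a1 in HC (0.15 without HC_control replicate 2), -0.21 to 1.40 for Sdc1 in KMC (-0.21 without KMC replicate 2) and -1.11 to 0.62 for Pigr in KMC (0.62 without KC replicate 1, 0.52 without KMC replicate 2, and 1.27 with library size alone). For the difference of MC and HC, Sdc1 ranged from -0.30 to 0.044 (0.044 without MC_control replicate 2) and was 0.17 with library size alone. For that of KMC and MC, the ranges were -2.37 to 0.032 for Cd79b (0.032 without MC replicate 1), -3.52 to 0.31 for Mzb1 and -1.06 to 0.29 for Irf4 (both highest without KC replicate 2, with Irf4 at 0.72 under library size alone), and -0.48 to 1.09 for Sdc1 (-0.48 without KMC replicate 2). Low counts limit Ms4a1 and Mzb1 in the MC controls and in KC replicate 1.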
